A study of Drosophila melanogaster with 3 samples.

Results

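The 7 genes described here, InR, foxo, chico, ImpL2, Ilp6, Ilp8 and Lgr3, belong to insulin signalling and to the hormonal coordination of growth in Drosophila melanogaster, and they were set against regions bound by the transcription factor acj6. They were chosen by name, and a peak was assigned to a gene when its summit lay in the gene body or within 5 kb of either end in the Release 6 annotation. They are 7 of 13945 protein-coding genes on the 6 chromosome arms. The measurements were genomic regions called in ChIP-seq (chromatin immunoprecipitation followed by sequencing), which sequences the DNA fragments that an antibody recovers together with a chromatin protein. The animals were whole white prepupae, which have just formed the puparium, of mixed sex and unstated age, from a transgenic line that stably expressed acj6, a class IV POU-homeodomain factor known from olfactory neurons, with GFP at its C-terminus. The antibody was directed against GFP. There was 1 group of 3 biological replicates, no second group and 1 control shared by the replicates, which was not analysed here, so whether regions at these genes also stand out in it was not tested. Because whole animals were used, the lists mix all tissues, and binding in few cells cannot be told apart from weak binding in many.

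In flies as in mammals, insulin-like peptides bind a receptor tyrosine kinase, which through an adaptor and phosphatidylinositol 3-kinase activates Akt. Akt keeps the forkhead factor foxo out of the nucleus, so that foxo and its target genes are active when insulin signalling is low. Growth of single organs is matched to that of the whole larva by Ilp8, a relaxin-like peptide that damaged or slowly growing imaginal discs release and that delays metamorphosis through the neuronal receptor Lgr3.

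Each replicate and the pooled alignment had a list of 30000 regions, which by design include background, and the list of reproducible peaks held 8248. That list is called the IDR list after the irreproducible discovery rate, a measure of how well replicates repeat a peak. Its 8248 peaks were the 8248 strongest regions of the pooled list. The signal value of each region, which is the authors' own, was not scaled between lists, so peaks are given here by rank within a list, with rank 1 the strongest. No read counts were used and the depth of the libraries is unknown. The 3 samples are labelled biological replicates, but the labels do not say whether they came from separate cultures. With a single group no test between conditions was possible, and 3 ranks against 3 cannot give an exact two-sided permutation p below 0.10.

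An IDR peak lay at 5 of the 7 genes, InR, foxo, ImpL2, Ilp6 and Lgr3, and at neither chico nor Ilp8. Of all 13945 protein-coding genes, 53.3% had such a peak (exact 95% binomial interval 52.5% to 54.2%). The same 5 genes had a region among the 8248 strongest of replicate 1, of replicate 2 and of replicate 3, against 55.5%, 53.5% and 55.4% of all genes in those lists (mean 54.8% ± 1.13, SD, n = 3). They also were the genes with any of the 30000 pooled regions, which 78.0% of all genes had. The share of all genes with a peak grew with gene length. Of genes whose body plus flanks spanned over 30 kb, InR and foxo (2 of 2) and 77.6% of all had an IDR peak. Between 15 and 30 kb these were ImpL2 and Lgr3 (2 of 2) and 66.7% of all. Up to 15 kb they were 1 of 3, Ilp6 but not chico or Ilp8, and 47.8% of all. The counted summits farthest out were 4621 bp from foxo and 4053 bp from Lgr3, and the nearest not counted were 7807 bp from foxo (rank 7895), 7896 bp from Lgr3 (rank 3698), 8597 bp from InR (rank 3257) and 9419 bp from Ilp6 (rank 769). A count of 5 in 7 is too small to set these genes apart from that background.

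The 5 genes held 24 IDR peaks, 8 at foxo, 7 at InR, 5 at ImpL2, 2 at Ilp6 and 2 at Lgr3, of which 13 lay in a gene body and 11 in the flanks. Each peak is numbered here from low to high coordinate within its gene. The sequences at the summits are printed first because the strongest peak of each gene fixes its place in the order of ranks. They are the 200 bases centred on the summit, on the plus strand, from NCBI's Release 6 genome sequence (dm6 coordinates), and they stop where an annotated untranslated region begins. Capitals mark exact matches, on either strand, to any of 7 motifs searched, which were ATTAATGAG, a short class IV POU site, ATGCAAAT, the POU octamer, TAATTA, the homeodomain core, GTAAACA, a forkhead site, AGGTCA, a nuclear receptor half-site, GAGAG, the GAGA repeat, and TATCGATA, the DRE (DNA replication-related element).
Ilp6 1, chrX:2329436-2329635: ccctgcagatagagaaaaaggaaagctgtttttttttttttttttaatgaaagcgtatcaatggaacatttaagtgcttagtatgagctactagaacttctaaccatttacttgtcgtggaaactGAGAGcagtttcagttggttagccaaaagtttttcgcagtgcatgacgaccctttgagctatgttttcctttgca
ImpL2 2, chr3L:4228265-4228464: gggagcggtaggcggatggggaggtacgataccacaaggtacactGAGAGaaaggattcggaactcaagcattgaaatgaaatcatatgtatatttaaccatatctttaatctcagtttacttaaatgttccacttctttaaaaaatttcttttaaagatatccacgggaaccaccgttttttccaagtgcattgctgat
InR 5, chr3R:21608740-21608939: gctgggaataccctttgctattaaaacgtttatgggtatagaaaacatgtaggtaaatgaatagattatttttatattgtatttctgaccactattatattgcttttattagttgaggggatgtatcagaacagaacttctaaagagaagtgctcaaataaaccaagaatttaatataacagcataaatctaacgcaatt
Lgr3 2, chr3R:25680656-25680844: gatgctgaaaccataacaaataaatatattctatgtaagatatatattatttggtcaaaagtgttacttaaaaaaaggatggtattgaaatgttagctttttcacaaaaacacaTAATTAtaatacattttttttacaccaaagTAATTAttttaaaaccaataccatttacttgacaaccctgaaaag
foxo 2, chr3R:14053491-14053690: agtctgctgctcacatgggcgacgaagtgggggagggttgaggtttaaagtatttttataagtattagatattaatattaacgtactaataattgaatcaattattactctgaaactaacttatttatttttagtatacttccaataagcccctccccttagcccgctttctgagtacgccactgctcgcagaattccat

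The peaks nearest to a start site of each gene, shown because they lie closest to a promoter of the gene, were other peaks in all 5 genes.
Ilp6 2, chrX:2336593-2336792: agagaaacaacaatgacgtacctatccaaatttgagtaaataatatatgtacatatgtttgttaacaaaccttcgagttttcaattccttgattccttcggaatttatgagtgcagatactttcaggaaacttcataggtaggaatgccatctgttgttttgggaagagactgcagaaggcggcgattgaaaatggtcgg
ImpL2 1, chr3L:4227463-4227662: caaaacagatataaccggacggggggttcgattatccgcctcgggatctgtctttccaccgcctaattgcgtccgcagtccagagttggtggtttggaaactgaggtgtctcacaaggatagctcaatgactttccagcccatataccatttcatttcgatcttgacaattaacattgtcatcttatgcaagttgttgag
InR 7, chr3R:21619322-21619507: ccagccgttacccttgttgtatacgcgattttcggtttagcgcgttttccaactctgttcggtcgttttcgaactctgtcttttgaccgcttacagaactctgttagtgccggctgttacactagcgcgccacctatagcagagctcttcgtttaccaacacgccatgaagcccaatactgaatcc
Lgr3 1, chr3R:25661656-25661794: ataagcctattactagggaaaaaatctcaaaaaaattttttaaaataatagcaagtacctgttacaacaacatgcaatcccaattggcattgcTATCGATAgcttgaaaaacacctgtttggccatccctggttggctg
foxo 3, chr3R:14056590-14056789: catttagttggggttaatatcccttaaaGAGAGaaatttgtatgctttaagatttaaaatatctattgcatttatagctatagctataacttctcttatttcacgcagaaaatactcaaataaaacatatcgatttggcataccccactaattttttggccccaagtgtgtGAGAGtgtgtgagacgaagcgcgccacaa

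GAGAG stood in 4 of the 24 windows of 200 bp, those of InR 1, foxo 3, ImpL2 2 and Ilp6 1 (16.7%), and in 20.1% of all IDR windows. TAATTA stood in 2, foxo 5 and Lgr3 2 (8.33%), and in 18.3% of all. Lgr3 2 held it at 2 positions. ATGCAAAT was in foxo 6 (4.17% against 3.16% of all) and TATCGATA in Lgr3 1 (4.17% against 1.75%). None of the 24 windows held ATTAATGAG, GTAAACA or AGGTCA, which 0.364%, 5.13% and 4.19% of all IDR windows held. A match or its absence says only which letters are in the window. The median GC content was 36.5% in the 24 windows (lowest at Lgr3 2 with 26.0%, highest at InR 7) and 33.5% in all IDR windows.

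Ilp6 (FBgn0044047, chrX:2331493-2334658, minus strand) encodes an insulin-like peptide made mainly by the fat body, and it is the peptide of this family whose transcription rises when feeding stops before pupariation. It lay within the larger gene Raf, which encodes a kinase of the Ras pathway, and both of its IDR peaks were in introns of Raf and outside the body of Ilp6. Ilp6 1 had its summit at 2329536, 1957 bp past the 3′ end of Ilp6 and 2408 bp from the nearest start site, that of CG2854. It ranked 2706 in the IDR list and 2946, 2323 and 3457 in replicates 1, 2 and 3. Ilp6 2, with its summit at 2336693, lay 2035 bp upstream of the first of 3 start sites of Ilp6. It ranked 3566 in the IDR list and 5828, 3133 and 3375 in the replicates. The strongest region at Ilp6 thus ranked 2946, 2323 and 3375 in the replicates (mean 2881 ± 529, SD, n = 3), the weakest of the 5 genes with a peak. Of all genes, 28.5% had 2 or more IDR peaks and 30.4% had one of at least this rank. Among the 10289 genes with an interval within 20% of its 13.2 kb, 23.4% had 2 or more.

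Ilp8 (FBgn0036690, chr3L:17029812-17032080, minus strand), the peptide by which imaginal discs delay the end of larval life, had no IDR peak and no pooled region. Replicate 1 held 1 weak region there and replicate 3 held 2, while replicate 2 held none. The replicate 1 region lay in the intron of Ilp8, 943 bp from its start site, at rank 12724 of 30000. Replicate 3 had a region in the same intron, 756 bp from the start site, at rank 14988, and one nearer to the gene beg at rank 18556. All 3 ranks lay beyond 8248, in the stretch of the lists that includes background. The nearest IDR peak was 17.2 kb past the 3′ end of the gene, at rank 4720, 59 bp from the start site of CG3764.

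ImpL2 (FBgn0001257, chr3L:4224006-4236147, minus strand) encodes a secreted immunoglobulin-domain protein that binds insulin-like peptides and holds back insulin signalling. It had the strongest peak of the 7 genes. ImpL2 2 (summit 4228365) lay in an intron, 1063 bp upstream of the second of its 3 start sites, and ranked 154 in the IDR list, with a signal value of 1081 where the list's median was 182 and its maximum 3755. In replicates 1, 2 and 3 it ranked 155, 114 and 199 (mean 156 ± 42.5, SD, n = 3). A peak of that rank or a stronger one was found at 3.36% of all genes. Such shares by rank, here and for the other genes, were not matched for gene length. ImpL2 3, in the same intron 3216 bp upstream of that start site, ranked 831 in the IDR list and 893, 640 and 1025 in the replicates. These strong regions stood upstream of the start site that ImpL2 shares with CG46460.

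The peak closest to an ImpL2 start site, ImpL2 1, was much weaker and varied more. It lay 261 bp upstream, ranked 7797 in the IDR list, and ranked 9777, 18181 and 4766 in replicates 1, 2 and 3, so that only replicate 3 had it among its strongest 8248. The last 2 peaks lay beyond the first start site, toward the gene Sqor, a sulphide oxidoreductase. ImpL2 5 lay 14 bp inside the 5′ UTR of Sqor, 4040 bp upstream of ImpL2, and ranked 479 in the IDR list and 299, 500 and 498 in the replicates. ImpL2 4 lay 539 bp from the Sqor start site, ranked 8024 in the IDR list, and ranked 17374, 3717 and 9406 in the replicates. Those 2 were nearer to Sqor than to ImpL2, and the lists do not say whether they act on any gene. Of all genes, 4.78% had 5 or more IDR peaks. Of the 1134 genes with an interval within 20% of the 22.1 kb of ImpL2, 8.64% did, and their median was 1.0.

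InR (FBgn0283499, chr3R:21570248-21619321, minus strand) encodes the insulin receptor, and its body of 49074 bp, with 4 start sites, was the longest of the 7. It held 7 IDR peaks, 6 in introns and 1 upstream, and none in its coding exons. InR 5 was the strongest, in an intron 10481 bp downstream of the first start site, at rank 1397 in the IDR list and 1087, 2005 and 1268 in the 3 replicates (mean 1453 ± 486, SD, n = 3). Its summit was 224 bp from an annotated transposable element, the only one of the 24 within 500 bp of one (4.17%, against 124 of all 8248 IDR peaks). Whether reads from other copies of that element add to the peak was not tested. Of all genes, 19.2% had a peak of this rank or stronger.

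Peaks stood close to 2 clusters of InR start sites. InR 7 lay 87 bp upstream of the first and ranked 4231 in the IDR list and 4088, 4376 and 4527 in replicates 1, 2 and 3, the closest spread of ranks in this gene. InR 1 lay 618 bp upstream of the last start site, 28512 bp from the first, and ranked 3234 in the IDR list and 3168, 3594 and 4085 in the replicates. InR 6, 3969 bp downstream of the nearest start site and inside the noncoding gene lncRNA:CR44034, ranked 3396. InR 2, inside lncRNA:Irar 2411 bp upstream of the third start site, ranked 4286, and InR 3, 5960 bp upstream of it, ranked 5347. The weakest was InR 4 at rank 7845, which ranked 8848 and 7966 in replicates 1 and 2. The nearest region of replicate 3 lay just past the 200 bp that counted as the same peak, 12919 bp from the first start site where InR 4 is at 13129 bp, at rank 5597. InR had 7, 7 and 9 regions among the 8248 strongest of replicates 1, 2 and 3. Of all genes 1.97% had 7 or more IDR peaks, but of the 277 genes within 20% of its 59.1 kb interval 23.1% did, with a median of 3.0.

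Lgr3 (FBgn0039354, chr3R:25665809-25677214, plus strand) encodes the relaxin-type receptor for Ilp8, used by brain neurons that restrain the hormone axis of moulting. It had 2 IDR peaks, neither in its body and both at the promoter of a neighbour. Lgr3 2 (summit 25680756), 3542 bp past the 3′ end of Lgr3 and 14947 bp from its start site, ranked 245 in the IDR list with a signal value of 908. In replicates 1, 2 and 3 it ranked 232, 293 and 261 (mean 262 ± 30.5, SD, n = 3). It lay 89 bp upstream of Idh3g, which encodes a subunit of the mitochondrial isocitrate dehydrogenase. Lgr3 1 lay 4053 bp upstream of Lgr3 and 39 bp from the start site of RASSF8, and ranked 6322 in the IDR list and 8125, 11943 and 5157 in the replicates. By nearest start site neither peak belonged to Lgr3. Within its own body the lists of 30000 regions held weak regions in replicate 1 alone, at ranks 29475, 22607 and 29713. Of all genes, 5.03% had a peak of rank 245 or stronger, and of the 1252 genes with an interval within 20% of its 21.4 kb, 42.6% had 2 or more IDR peaks.

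chico (FBgn0024248, chr2L:10242512-10247078, minus strand) encodes the insulin receptor substrate, the adaptor that links the receptor to phosphatidylinositol 3-kinase. It had no IDR peak and no pooled region. Replicate 1 held 2 regions within 5 kb, replicate 2 none and replicate 3 held 8, all weak. The best was at rank 17221 in replicate 1 and 9896 in replicate 3, and both lay nearest to me31B, the neighbour on its 3′ side. Replicate 3 had a region 440 bp upstream of the chico start site, at rank 14364, within the 3′ UTR of bsk. The IDR peak nearest to its body was 11.2 kb past the 3′ end, at rank 4701, close to ova. The map of the 4 genes with the fewest regions shows that the circles stand away from each gene's own exons.

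**Figure D1:**
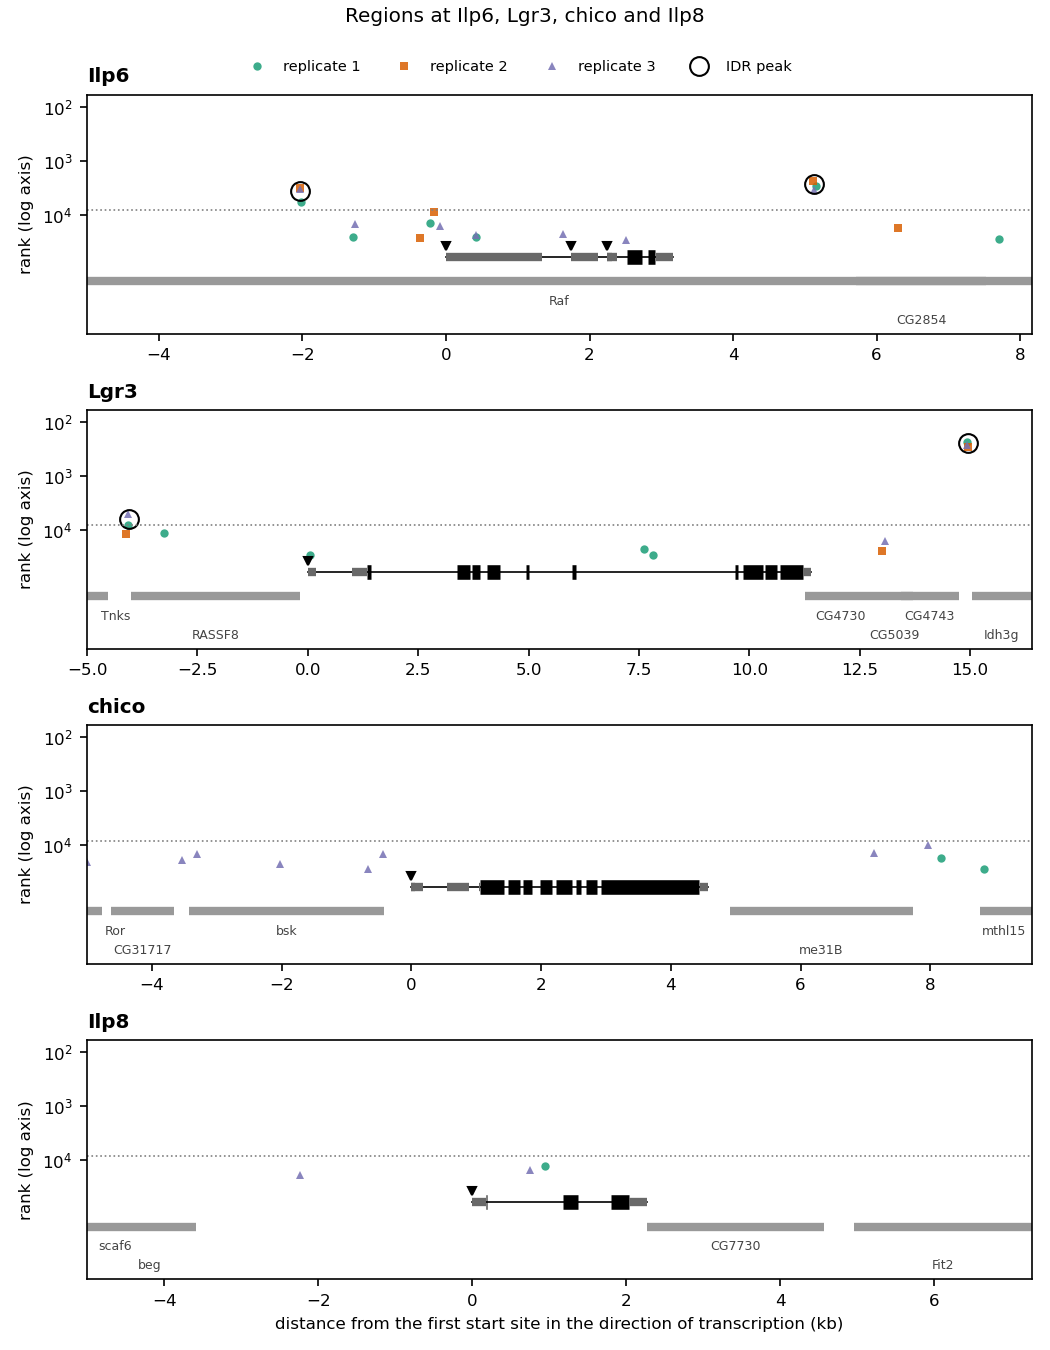
Regions of the 3 replicate lists at Ilp6, Lgr3, chico and Ilp8, by distance from the first start site in the direction of transcription (kb) and by rank (log axis), with IDR peaks circled, start sites as triangles, the dotted line at rank 8248, coding exons in black, UTRs in dark grey and neighbouring genes in light grey. The circles at Ilp6 and Lgr3 (2 each) lie outside the gene bodies, and at chico and Ilp8 every symbol lies below the dotted line.

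foxo (FBgn0038197, chr3R:14056945-14087978, plus strand) encodes the forkhead factor at the end of the pathway. It had 8 IDR peaks, the most of the 7 genes, 3 upstream, 4 in introns and 1 past the 3′ end. foxo 2 (summit 14053591), 3354 bp upstream of the first of 2 start sites, ranked 438 in the IDR list and 358, 465 and 539 in the 3 replicates (mean 454 ± 91.0, SD, n = 3). Its summit varied by 9.17 bp (SD) over the 3 lists. foxo 1, 4621 bp upstream, ranked 1685 in the IDR list and 1752, 1493 and 2025 in the replicates. foxo 3, 255 bp upstream and so the promoter peak, ranked 3247 in the IDR list and was uneven, at 6219, 2278 and 3817 in the replicates. The upstream side of foxo thus held its strongest regions, and the one at the start site was weaker than those 3354 and 4621 bp away.

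In the introns of foxo the strongest peak was foxo 5, 4231 bp downstream of the second start site, at rank 2752 in the IDR list and 2202, 2335 and 3051 in replicates 1, 2 and 3. Its deposited interval was only 122 bp wide, where 420 bp is the commonest width, and its summit varied by 2.08 bp (SD), the least of all. foxo 4, 3602 bp downstream of that site, ranked 6202 in the IDR list and 3524, 4661 and 9911 in the replicates. foxo 7 and foxo 6, farther into the gene, ranked 4275 and 7714. foxo 8 at rank 5336 lay 1081 bp past the 3′ end and 458 bp upstream of Npc2b, a sterol-binding protein gene, to which it was nearer than to foxo. foxo had 9, 9 and 8 regions among the 8248 strongest of replicates 1, 2 and 3. Of all genes 1.37% had 8 or more IDR peaks, and of the 423 genes within 20% of its 41.0 kb interval 8.98% did, with a median of 2.0. In the map of InR, foxo and ImpL2 the circles spread over introns and upstream sequence, with the highest upstream of foxo and inside the long intron of ImpL2.

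**Figure D2:**
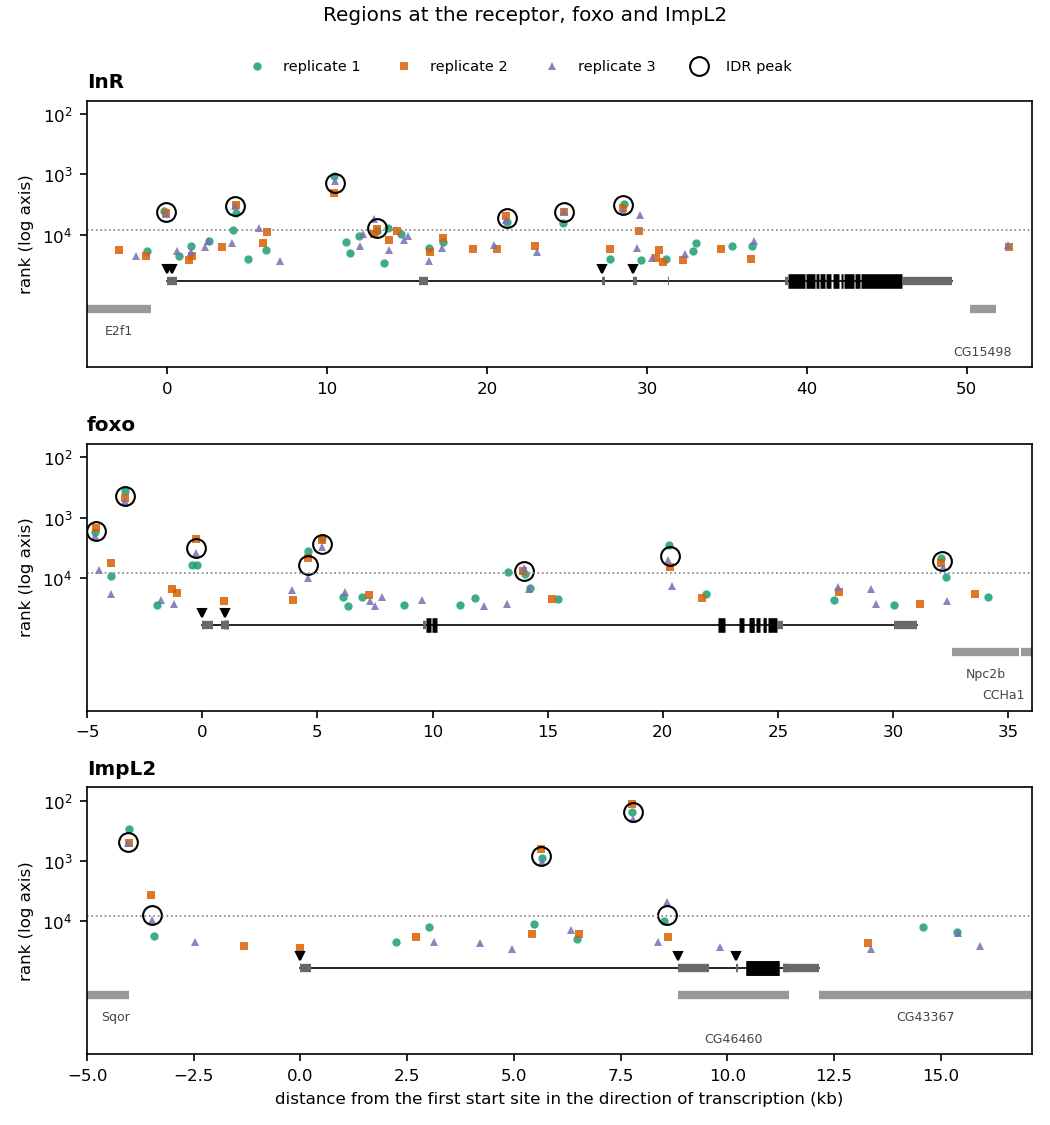
The same map for InR, foxo and ImpL2. InR holds 7 circles, foxo 8 and ImpL2 5, and none lies on a coding exon of its gene.

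Ordered by their strongest region the genes ran ImpL2, Lgr3, foxo, InR and Ilp6, in each of the 3 replicates. No neighbours in this order overlapped. The weakest of the 3 ranks of ImpL2 was 199 and the best of Lgr3 232. That of Lgr3 was 293, against 358 for foxo. That of foxo was 539, against 1087 for InR, and that of InR 2005, against 2323 for Ilp6. The genes share their libraries, so this is a description of 3 samples. In the plot of ranks by peak the replicates lie farthest apart at ImpL2 1 and ImpL2 4, whose strongest and weakest ranks are on either side of rank 8248. The places of foxo, Lgr3 and Ilp6 in this order rest on peaks in the flanks, while the strongest peaks of ImpL2 and InR lie in their own introns. With regions in the gene body only, the mean rank of foxo was 2529 and that of InR 1453, so that InR came before foxo, and Lgr3 and Ilp6 gave no value, since not every replicate had a region in their bodies. Genes of like rank were sought for ImpL2 and Lgr3, leaving out genes that share a region with either. Among the rest, Pits and LIMK1, neighbours on the X chromosome that share a peak, came closest to ImpL2 over the 3 replicates. Their ranks were 184, 128 and 203 (Euclidean distance 0.0903 in log10 rank), and frc followed at 134, 127 and 179 (0.0912). For Lgr3 the closest were RluA-2 and RluA-1, which share a region, at 227, 299 and 251 (0.0213), and px at 244, 309 and 248 (0.0388).

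**Figure D3:**
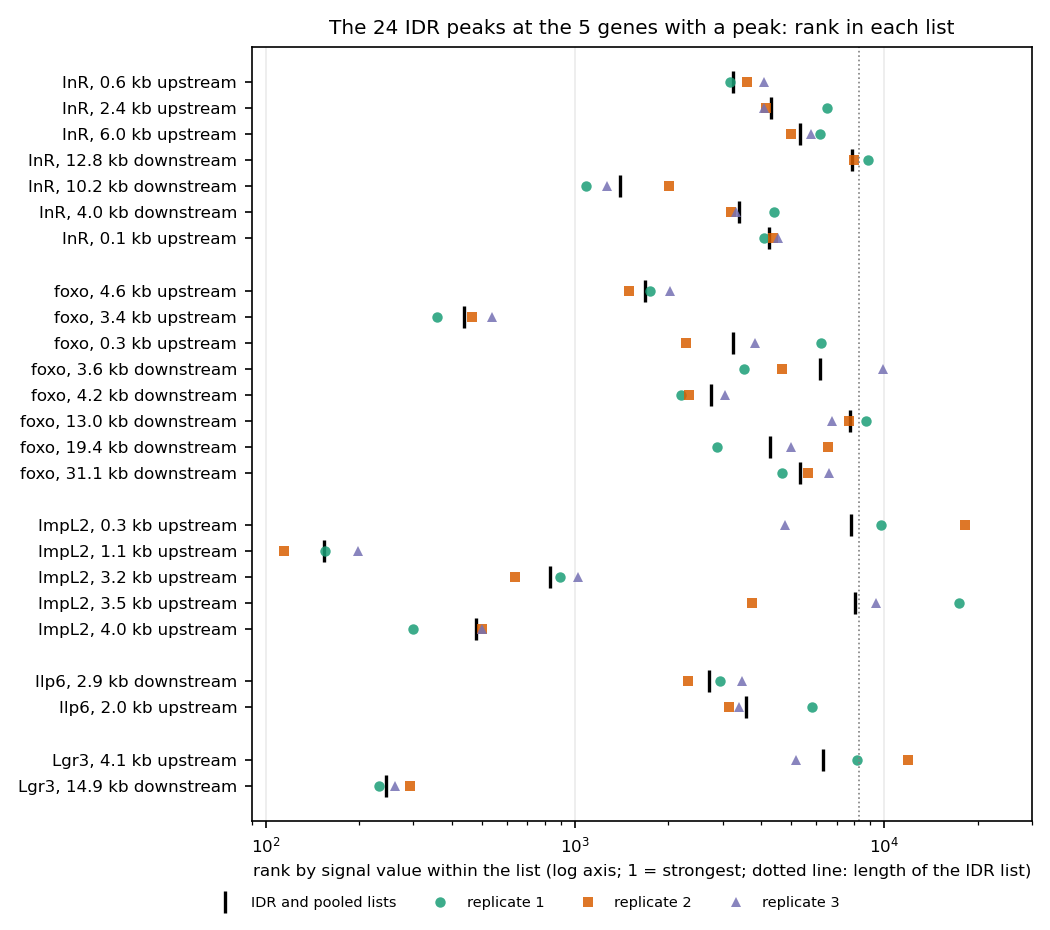
Rank (log axis, 1 is the strongest) of the 24 IDR peaks at the 5 genes in the IDR and pooled lists (bars) and in replicates 1, 2 and 3 (symbols), with rows named by the distance to the nearest start site of the gene. ImpL2 has the strongest peak, at ranks 155, 114 and 199, and the dotted line marks rank 8248.

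Over the 7 intervals, 184 kb in all, there were 1.31 IDR peaks per 10 kb, and over the arms as a whole (134 Mb) 0.616. The arms also count sequence outside the intervals of genes, so these 2 densities are not like for like. Per gene, the median over all protein-coding genes was 1.0 IDR peak, and the median interval was 12.2 kb. Density ran 2.26 per 10 kb at ImpL2, 1.95 at foxo, 1.52 at Ilp6, 1.18 at InR and 0.934 at Lgr3, with no peak at chico and Ilp8. Introns held 15 of the 24 peaks (62.5%), against 54.3% of all IDR peaks, and 8 (33.3%, against 39.6%) lay outside protein-coding genes. One stood in a 5′ UTR, that of Sqor, and 0 in a coding exon or 3′ UTR, where 133 of all 8248 stood. Within 500 bp of a coding start site there were 7 (29.2%), against 29.8% of all. The nearest start site was that of the gene itself for 17 of the 24. The median rank was 3481 for the 24 and 4124 for all, and 4 (16.7%) were among the 824 strongest of the list, against 9.99% of all.

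A summit within 1 kb of a start site was found for 3 of the 7 genes, InR, foxo and ImpL2, and for 24.4% of all genes. ImpL2 was the least certain of the 3, since its start-site peak was among the strongest 8248 in replicate 3 alone. All 3 replicates covered at least 50% of the length of 17 of the 24 peaks with one of their 8248 strongest regions (70.8%), and of 5820 of all IDR peaks (70.6%). For the 23 peaks with a region within 200 bp in every replicate list, the summit varied by a median of 32.2 bp (SD over the 3), and by 51.7 bp at most. The peaks at these genes were thus found again about as often as IDR peaks in general.

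**Figure D4:**
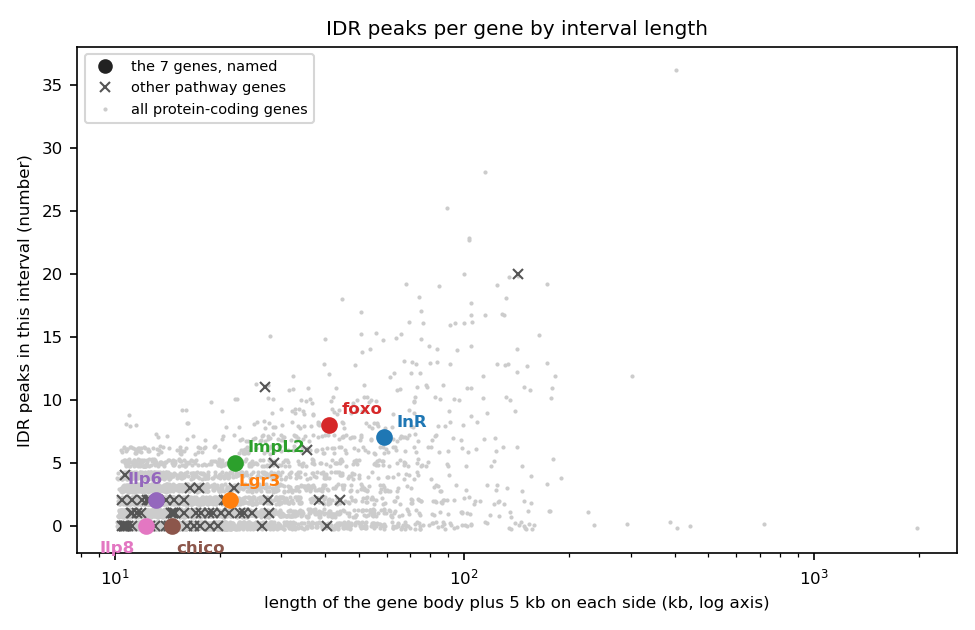
IDR peaks per gene against the length of the gene body plus 5 kb on each side (kb, log axis). Large named dots are the 7 genes, crosses the 60 other pathway genes and small dots all 13945 protein-coding genes. Genes with the same number of peaks and the same rounded length share a small dot, so that a dot can stand for many genes. Small dots were shifted slightly up or down at random to lessen overlap. InR with 7 peaks, foxo with 8 and ImpL2 with 5 lie toward the upper side of genes of their length, while chico and Ilp8 lie at 0.

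Lists of other genes of these pathways, 60 genes by role, gave the surroundings of the 7. IDR peaks lay at 42 of the 60 (70.0%), against 53.3% of all genes, and at 43 when the strongest regions of each replicate were used. A peak within 1 kb of a start site was found for 24 of the 60 (40.0%), against 24.4% of all. The median was 1.0 IDR peak per gene, as over all genes. The 60 genes were not matched to all genes in length, and no test was made. With the 4124 strongest IDR peaks alone, 26 of the 60 had a peak, against 38.6% of all genes, which is nearer to the background. The counts of the role lists that follow stand against the same 53.3% of all genes, or 47.8%, 66.7% and 77.6% for intervals up to 15 kb, from 15 to 30 kb and over 30 kb.

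Ligands and binding proteins had a peak at 3 of 8 genes. All of Ilp1 to Ilp5, the peptides other than Ilp6 to Ilp8, lacked one, a point picked out after their values were seen. Ilp1 to Ilp4 lie side by side on arm 3L and share weak regions, such as one of rank 22305 in replicate 1, so that they count as one locus rather than 4. Ilp5 is on the same arm, with best ranks of 18953, 26619 and 20800 in replicates 1, 2 and 3. Whether it is separate from that locus was not tested. The strongest was at conv, which encodes a secreted protein found in complexes with insulin-like peptides, at rank 1878, 227 bp from the start site of Sps1, and the next at Ilp7, 231 bp upstream of its start site, at rank 6952. At Ilp7 the replicates were far apart, with ranks 11354, 5514 and 2136.

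The steps from the receptor to Akt had a peak at 8 of 9 genes. At Akt, the central kinase, the peak ranked 56 in the IDR list and 78, 50 and 56 in replicates 1, 2 and 3, stronger than any at the 7 genes, but it stood in an intron nearer to the start site of Mhcl, 955 bp away. melt, a membrane adaptor that acts on foxo and TOR, had a peak of rank 579, 301 bp upstream of its own start site. The TOR (target of rapamycin) branch, which couples amino acids to growth, had a peak at 13 of 16 genes. The strongest was at slif, an amino acid transporter, at rank 8 in the IDR list and 6, 9 and 9 in the replicates, which stood 88 bp from the start site of Chro. At Nprl3, of the complex that restrains TOR, the peak ranked 91 and was nearest to upSET.

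The partners and outputs of foxo had a peak at 3 of 5 genes. Myc, a growth regulator, had 5 peaks, the strongest at rank 149 in an intron 8747 bp downstream of its start site, with ranks 191, 93 and 222 in the replicates. Sirt1, a deacetylase, had one of rank 962, 156 bp from the start site of DnaJ-H. Nutrient and growth hormones and their receptors had a peak at 10 of 17 genes, with babo, a receptor of the activin branch, at rank 1079 and sNPF, a neuropeptide, at rank 1750, 397 bp upstream of its start site. The genes of the growth checkpoint upstream of Ilp8 all had a peak (6 of 6), and 4 of them, Xrp1, hep, puc and egr, had intervals between 15 and 30 kb, a length at which 66.7% of all genes had one. Irbp18, a bZIP factor, had one of rank 313 that stood 29 bp from the start site of APP-BP1, and puc, the JNK phosphatase and reporter of that pathway, had 11, the strongest of rank 630 in its intron, 6666 bp downstream of a start site. Of these 12 strongest peaks, those of Ilp7, melt, Myc, sNPF and puc had the gene's own start site as the nearest.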

How the data were processed

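Per the labels, sonication left fragments of 200 to 800 bp, which were recovered with an antibody against GFP from 3 biological replicates of 1 group. The authors deposited, in dm6 (Release 6) coordinates, region lists for each replicate and the pooled alignments (30000 regions each) and an IDR list (8248). The deposited values used were the signal value of each region, whose scale differs between lists, and the summit position; −log10 q values, also deposited, have many ties at their maximum and were not used to rank. For the aligner, the caller and the IDR cut-off, names and settings were not given in the sources used here. Lists in dm3 were not used, and the control was not analysed here.

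Summits were set against Ensembl release 115 genes and NCBI's Release 6 sequence. A gene had a peak when a summit lay in its body or within 5 kb, and a start-site peak within 1 kb. Replicate ranks of an IDR peak are those of the strongest region with its summit within 200 bp. Intervals of shares are exact 95% binomial intervals over genes and cover counting error only. The 7 genes and the pathway lists were chosen with earlier results of these data known. Named beside the 7 were the 2 genes per list with the strongest IDR peak, the 3 genes nearest in log10 rank to ImpL2 and Lgr3, which had the strongest peaks, and genes with the nearest start site. Genes that share a region with ImpL2 or Lgr3 were left out when those nearest in rank were chosen. In the lists Tor was matched as mTor. Alternatives covered distance, peak strength, list, overlap, assignment and leaving out each replicate. Python 3.11.15, numpy 2.4.6, pandas 2.3.3, scipy 1.17.1 and matplotlib 3.10.9 were used, and the counting was tested on simulated lists.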

Additional observations from a re-analysis of the deposited data

How the results depend on the processing

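The count of 5 genes with an IDR peak became 3 (InR, foxo and ImpL2) when only the gene body counted, where 14.7% of all genes had a peak. It was 4 within 2 kb (38.5% of all). The count was 4 as well with each peak given only to its nearest start site, a rule without a share of all genes to set beside it. It was also 5 within 10 kb, where 68.9% of all genes had a peak, among the 4124 strongest IDR peaks (38.6% of all), in each replicate alone and without each replicate (lowest and highest 5). The 24 peaks became 13 in gene bodies only and 13 among the 4124 strongest. The mean rank of the strongest region of foxo became 2529 in its body only, behind InR at 1453, which reverses their order. Lgr3 and Ilp6 gave no value there, since not every replicate had a region in the body. The 42 of 60 pathway genes became 11 in gene bodies only (14.7% of all genes) and 26 with the 4124 strongest (38.6% of all). Genes with a start-site peak numbered 3 (24.4% of all genes), and also 3 within 500 bp (20.4%) and 3 within 2 kb (30.7%). In replicates 1, 2 and 3 alone they numbered 2, 2 and 3, without a share of all genes to set beside them. Leaving out each replicate gave 18 peaks found in both others, against 17 in all 3, and mean ranks of 1178 to 1636 for InR, 412 to 502 for foxo, 134 to 177 for ImpL2, 2634 to 3160 for Ilp6 and 246 to 277 for Lgr3. Matching by summits within 200 bp, an alternative chosen after seeing the data, gave 18. The pooled alternative equals the IDR list by construction. No paired analysis was possible because there was only 1 group. The counts in gene bodies only and with stronger peaks are lower by construction, since fewer peaks are counted. With gene bodies only, the strongest peak of foxo, 3354 bp upstream of its body, is among those left out. Unknown depth limits what the lack of a peak at chico and Ilp8 shows: none was detectable in these lists.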

Other observations

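mTor, which encodes the TOR kinase, had neither an IDR peak nor a pooled region, while its strongest region ranked 1157, 852 and 1223 in replicates 1, 2 and 3. gig, which encodes the Tsc2 subunit that restrains TOR, likewise had neither, with ranks of 3821, 3787 and 2582. Both were picked out after their values were seen. Of 1601 regions within the strongest 2000 of all 3 replicates, 3 had no pooled region, and of 3176 within the strongest 4000, 17 had none. Within the strongest 1000 there were 810 such regions, of which 0 lacked a pooled one. A gene without an IDR peak can thus have regions that rank high in every replicate list. Neither chico nor Ilp8 was such a case, since their best ranks were 17221 and 9896 in replicates 1 and 3 for chico, and 12724 and 14988 in those replicates for Ilp8.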
